A study of Mus musculus with 6 samples.

Results

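The 10 genes described here encode enzymes that carry glucose 6-phosphate to lactate, with 1 gene for each of 10 reaction steps. They are Gpi1, Pfkl, Aldoa, Tpi1, Gapdh, Pgk1, Pgam1, Eno1, Pkm and Ldha, chosen by their exact symbols from the 21956 gene IDs of the table. RNA was sequenced from mouse material that is labelled as lung tissue, in 3 VE libraries and 3 Aalter libraries. The labels spell out neither name and give no strain, age, genotype, dose or time, and no untreated group was analysed here. The series' title speaks of alpha tocopherol, a form of vitamin E, in allergic airway inflammation, and of ferroptosis of group 2 innate lymphoid cells under the kinase LKB1, so the comparison asks what distinguishes VE transcripts from Aalter transcripts. Since no label states that the libraries stem from separate mice, a p-value here measures the spread between these libraries, which may be technical.

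Glycolysis splits glucose into pyruvate in the cytosol, first spending ATP and then regaining more than was spent. The upper steps rearrange and cleave the sugar phosphate, and the lower steps oxidise the triose and hand its phosphates to ADP. Lactate dehydrogenase then turns pyruvate into lactate and returns the NAD+ that the oxidation consumed. Neutrophils and activated macrophages draw much of their ATP from this route, and hypoxia-inducible factors (HIF) are known to raise the transcription of many of its genes.

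VE libraries held more transcript of the enzymes from triose phosphate isomerase onward than Aalter libraries did. Of the 10 genes 7 rose in VE, 0 fell and 3 did not pass the test, where a rise or fall means an adjusted p under 0.05. The 7 that rose were Tpi1, Gapdh, Pgk1, Pgam1, Eno1, Pkm and Ldha, and their expression was between 1.29-fold and 1.68-fold that of Aalter. The 3 that did not pass were Gpi1, Pfkl and Aldoa, the enzymes of the first 3 of these steps. Gpi1 was close to the threshold (adjusted p = 0.0553) and passed in 7 of 19 alternative fits. Over all 12551 genes tested, 12.8% rose, 19.5% fell and 32.3% passed in either direction. The median log2 fold change of VE over Aalter was 0.43 for the 10 genes and 0.023 for all genes tested. The test was edgeR's quasi-likelihood test on the counts with TMM scaling between libraries, with Benjamini-Hochberg adjustment over all genes tested. It gave every adjusted p of a gene below, unless another test is named. Of 1778 genes with a mean of at least 100 CPM (read counts relative to library size and TMM factor), a set chosen after the data were seen, 528 or 29.7% rose, with a median log2 fold change of 0.14. All of the 10 genes but Pfkl lay above that level.

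The 6 libraries were not alike within their groups. Total estimated counts lay between 12663763 and 15077851 in VE libraries and between 11617074 and 16205053 in Aalter libraries. On the first principal component, which held 66.7% of the variance, VE-1, VE-2 and VE-3 scored -38.8, -36.01 and -40.2, against -2.34 in Aalter-1 and 61.4 and 56.02 in Aalter-2 and Aalter-3. Aalter-1 thus lay nearer to the VE libraries than the other Aalter libraries did. Summed liver markers (8 genes, Alb among them) came to 1067 CPM in VE-1, 29.7 CPM in VE-2 and 48.3 CPM in VE-3, against 817 CPM in Aalter-1, 58.1 CPM in Aalter-2 and 45.7 CPM in Aalter-3. Markers of lung epithelium were few beside those of leukocytes, with 9 genes summing to between 207 and 221 CPM in VE and between 269 and 448 CPM in Aalter, while 11 neutrophil markers summed to between 25787 and 44555 CPM over all 6 libraries. In such bulk material, fewer cells of a type and less RNA per cell cannot be told apart.

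The upper part of the pathway showed small differences. Gpi1, glucose 6-phosphate isomerase, stood at 524.6, 528.8 and 520.5 CPM in VE-1 to VE-3, against 449.4, 430.4 and 437.3 CPM in Aalter-1 to Aalter-3. Every VE library lay above every Aalter library, and the spread within each group was narrow. The log2 fold change was 0.26 ± 0.086 (SE), and the gene did not pass (adjusted p = 0.0553). Gpi1 passed with DESeq2 (adjusted p = 0.0086) and with limma-voom (adjusted p = 0.0443). With edgeR it passed among genes with a mean of at least 5 CPM (adjusted p = 0.0406). It did not pass with no filter on low counts (adjusted p = 0.106) or with library size alone as the scaling (adjusted p = 0.332).

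Pfkl, the liver-type subunit of phosphofructokinase, which catalyses the committed step, had 31.5, 31.6 and 31.6 CPM in VE, against 31.5, 32.4 and 31.8 CPM in Aalter. The groups overlapped, and the log2 fold change was -0.015 ± 0.082 with a 95% interval from -0.21 to 0.18 (adjusted p = 0.904). These values rest on 377 to 462 counts per VE library and 389 to 531 counts per Aalter library, the fewest of the 10 genes. Aldoa, the aldolase that cleaves the sugar, had 384.5, 398.8 and 418.9 CPM in VE, against 344.6, 402.4 and 404.8 CPM in Aalter. Here too the groups overlapped, because 2 of the Aalter libraries lay within the VE range. Aldoa's log2 fold change came to 0.062 ± 0.10, with an interval from -0.18 to 0.30 (adjusted p = 0.669).

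The largest rise was that of Tpi1, triose phosphate isomerase, which interconverts the products of the cleavage so that both can go on. Tpi1 had 176.8, 179.4 and 193.4 CPM in VE, against 133.6, 95.97 and 96.7 CPM in Aalter. The groups did not overlap, and Aalter-1 stood well above the other Aalter libraries. The log2 fold change was 0.75 ± 0.14 (adjusted p = 0.0126), a 1.68-fold difference.

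Both enzymes that follow, which oxidise the triose phosphate and then hand a phosphate to ADP, rose as well. Gapdh, the dehydrogenase whose transcript is often taken as a reference in other assays, had 1771, 1757 and 1780 CPM in VE, against 1439, 1284 and 1300 CPM in Aalter (values rounded to whole CPM). The VE libraries lay close together and above all Aalter libraries. The log2 fold change was 0.40 ± 0.099 (adjusted p = 0.0232). Pgk1, phosphoglycerate kinase, which forms ATP, had 408, 414 and 464 CPM in VE, against 321, 246 and 254 CPM in Aalter. All VE libraries lay above all Aalter libraries, and the log2 fold change was 0.65 ± 0.13 (adjusted p = 0.0143).

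Pgam1, the mutase that moves the phosphate of phosphoglycerate, had 231.8, 230.1 and 241.6 CPM in VE, against 193.4, 154.9 and 164.4 CPM in Aalter. For this gene the log2 fold change came to 0.46 ± 0.11 (adjusted p = 0.0207). Eno1, enolase, had 440.8, 452.4 and 492.6 CPM in VE, against 371.6, 293.4 and 304.7 CPM in Aalter. For both genes the groups were apart and Aalter-1 was the highest Aalter library. The log2 fold change of Eno1 was 0.51 ± 0.12 (adjusted p = 0.0201).

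Pkm, pyruvate kinase, which forms ATP and pyruvate, had 995.5, 1081 and 1248 CPM in VE, against 859.6, 727.3 and 750.5 CPM in Aalter. It had the widest spread among VE libraries of the 10 genes, with a mean of 1108 ± 128 CPM in VE and 779 ± 70.6 CPM in Aalter (SD, n = 3 each), and the log2 fold change was 0.51 ± 0.13 (adjusted p = 0.0235). The counts are per gene and do not separate the splice forms M1 and M2 of this enzyme. Ldha, which makes lactate, had 822.9, 852.7 and 890.8 CPM in VE, against 686.4, 638.02 and 666.8 CPM in Aalter. The groups were apart with little spread in either, and the log2 fold change was 0.37 ± 0.093 (adjusted p = 0.0254).

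**Figure D1:**
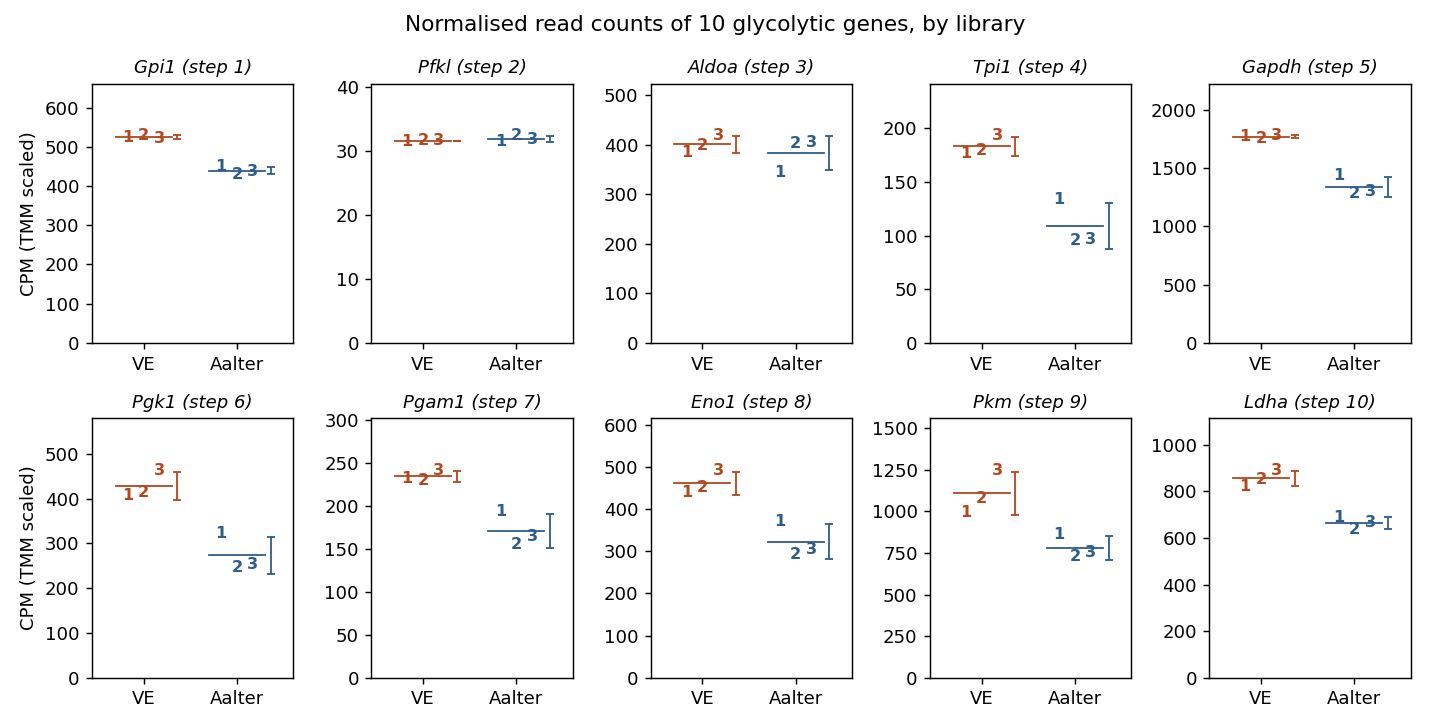
Normalised read counts of the 10 genes (CPM with TMM scaling, linear axes from 0), 1 panel per gene in order of reaction steps, with digits for replicate numbers, lines for means and bars for the SD of 3 libraries. VE lies left and Aalter right, and in 8 of 10 panels no Aalter library reaches a VE library, the exceptions being Pfkl and Aldoa.

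In 8 of the 10 genes every VE library lay above every Aalter library, which was so for 25.6% of all genes tested, while the reverse order held for 26.3%. VE-3 was the highest VE library for 9 of the 10 genes, and Aalter-1 the highest Aalter library for 8. The summed CPM of the 10 genes was 5788, 5926 and 6281 in VE, against 4831, 4304 and 4410 in Aalter. As a share of all counts, with no scaling, they made up 0.548%, 0.558% and 0.608% of VE libraries, against 0.522%, 0.444% and 0.455% of Aalter libraries. The groups did not overlap on either scale, and VE-1 and Aalter-1 came closest.

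The number of genes called depended on single libraries, on the scaling and, for Gpi1, on the test and the filter. Without Aalter-1, 8 of the 10 genes rose and Gpi1 was among them (0.28, adjusted p = 0.002), beside 27.8% of all genes tested. Without any 1 of the other 5 libraries 0 of the 10 genes passed, and between 2 and 110 genes of the whole table rose. The log2 fold changes moved less over these 6 fits: Tpi1 lay between 0.67 and 0.93, Gapdh between 0.37 and 0.46, and Ldha between 0.31 and 0.39. With library size alone as the scaling, the median log2 fold change of all genes shifted by -0.14, 495 genes rose and 3231 fell (against 1612 and 2442 with TMM), and Tpi1 (0.61) and Pgk1 (0.51) were the 2 of the 10 that rose, beside 3.94% of all genes tested. There the median of the 10 genes was 0.29 and that of all genes -0.12, so that their distance was 0.40 under library size and 0.41 under TMM. A change of scaling moves all genes by nearly the same amount, so this likeness of distances was given in advance and is no check.

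The difference between the upper and lower steps was noticed after the values were seen, so it is described with no test. Summed CPM of Gpi1, Pfkl and Aldoa averaged 957 ± 15.3 in VE and 855 ± 25.7 in Aalter, and that of the 7 later genes 5041 ± 241 in VE and 3660 ± 302 in Aalter (SD, n = 3 each). The ratio of the later to the earlier sum, which needs no scaling between libraries, was 5.15, 5.18 and 5.47 in VE, against 4.85, 3.97 and 4.05 in Aalter. Tpi1 and Aldoa act next to each other, and the ratio of their counts was 0.460, 0.450 and 0.462 in VE, against 0.388, 0.239 and 0.239 in Aalter. Both ratios were close among VE libraries, and in Aalter-1 both lay between VE and the other Aalter libraries.

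The difference depended on whether base composition was corrected for. Once trends of each library with GC content and transcript length were taken out, all 10 genes had a log2 fold change above 0 and 8 of them rose, beside 13.5% of all genes tested. Pfkl stood at 0.44 (adjusted p = 0.0232) and Gpi1 at 0.36 (adjusted p = 0.0325) and both passed, while Aldoa at 0.31 (adjusted p = 0.0677) and Ldha at 0.36 (adjusted p = 0.0524) did not. With the GC trend alone removed, a setting chosen after the data were seen, all 10 rose, beside 15.1% of all genes tested, and Pfkl was at 0.34 and Aldoa at 0.41. The longest transcripts of Pfkl and Aldoa have 57.1% and 56.9% GC, those of Eno1 and Pkm 57.4% and 57.7%, and that of Pgk1 49.7%. The direction given for Pfkl and the size given for Aldoa therefore hold for the counts without such a correction. With both trends removed the split over all genes was 1690 higher and 1604 lower, and with the length trend alone removed it was 2190 higher and 1916 lower.

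**Figure D2:**
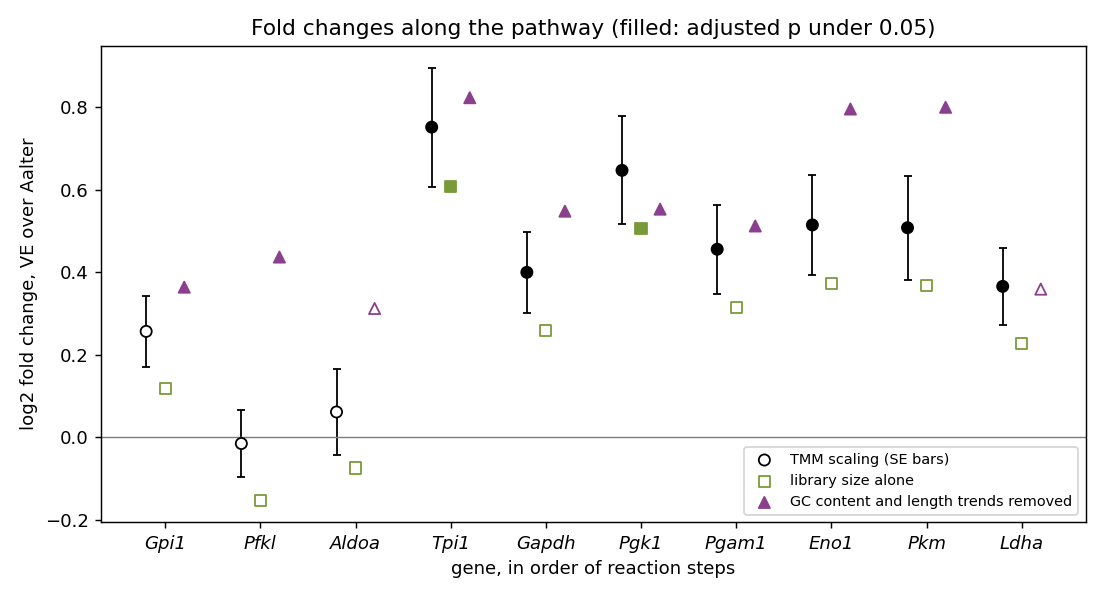
Log2 fold change of VE over Aalter for each gene, in order of reaction steps, under TMM scaling (circles, bars for the SE), under library size alone (squares) and with GC content and length trends removed (triangles). Filled symbols have an adjusted p under 0.05; Pfkl lies at -0.015, -0.15 and 0.44 in these 3 settings and Tpi1 at 0.75, 0.61 and 0.82.

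Promoters of the 10 genes were read from RefSeq (GRCm38.p6) as the 250 bases before each annotated start site. HIF is known to act at several of these promoters. The HIF core was searched as ACGTG or GCGTG on both strands, and the E-box, bound by MYC and USF factors, as CACGTG, which contains ACGTG. RefSeq gives 16 start sites for the 10 genes, and 12 of them had at least 1 HIF core match, against 38.6% of 32851 mouse promoter windows of the same length. ACGTG was found at 6 of the 16 sites, against 16.6% of all windows, and the E-box at 1, against 6.02%. By gene, 8 of 10 had a match at some start site, and the windows of Gpi1 and Tpi1 had none. The share of all genes with such a match was not computed, and genes with more start sites have more chances. GC content lay between 50.4% and 71.2% in the 16 windows, and the windows compared were not matched for it. Whether windows of like composition hold as many matches was not tested. Start sites of a gene can overlap, so the 16 windows are not independent. Of the 4 windows below, Ldha and Pgk1 hold the most ACGTG matches, Tpi1 belongs to the gene with the largest rise and Pfkl to the gene with the smallest difference. Each is written 5′ to 3′ on the gene's strand, with matches in capitals. They lie at chr7:46845554-46845803 on the plus strand (the first of 2 start sites of Ldha), chrX:106186850-106187099 on the plus strand (Pgk1), chr6:124814159-124814408 on the minus strand (Tpi1) and chr10:78009808-78010057 on the minus strand (Pfkl).
Ldha: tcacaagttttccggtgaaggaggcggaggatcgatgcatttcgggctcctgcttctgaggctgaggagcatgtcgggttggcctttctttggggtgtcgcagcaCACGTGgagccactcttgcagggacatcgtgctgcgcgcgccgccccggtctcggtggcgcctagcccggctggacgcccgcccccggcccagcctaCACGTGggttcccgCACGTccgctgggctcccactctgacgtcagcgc
Pgk1: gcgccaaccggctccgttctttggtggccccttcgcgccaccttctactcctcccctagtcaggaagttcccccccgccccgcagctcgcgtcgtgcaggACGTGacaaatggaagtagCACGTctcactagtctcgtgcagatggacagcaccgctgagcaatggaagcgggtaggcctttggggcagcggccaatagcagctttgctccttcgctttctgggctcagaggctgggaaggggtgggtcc
Tpi1: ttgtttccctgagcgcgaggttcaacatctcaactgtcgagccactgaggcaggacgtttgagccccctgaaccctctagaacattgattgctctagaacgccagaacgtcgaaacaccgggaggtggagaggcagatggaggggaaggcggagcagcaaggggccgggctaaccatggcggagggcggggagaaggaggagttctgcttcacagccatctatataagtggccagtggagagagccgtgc
Pfkl: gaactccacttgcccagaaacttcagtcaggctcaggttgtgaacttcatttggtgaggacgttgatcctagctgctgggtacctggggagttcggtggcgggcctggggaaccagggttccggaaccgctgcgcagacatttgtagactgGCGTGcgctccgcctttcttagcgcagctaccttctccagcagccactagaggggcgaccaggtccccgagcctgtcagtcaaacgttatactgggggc
The Ldha window held 5 matches, at 145, 144, 48, 47 and 34 bases before the start, of which the first 4 are both strands of a pair of E-boxes. The Pgk1 window held 2, at 150 and 131 bases. Tpi1 rose by 0.75 on the log2 scale with no match in its window, and Pfkl, at -0.015, had 1 match at 99 bases. A match is a string of letters and not a measured binding site, and whether matches bear on the changes was not tested.

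In GENCODE vM21 (mm10) all 10 genes are protein-coding, and counts were taken per gene. On chromosome 7 are Gpi1 (ENSMUSG00000036427, 34201330 to 34230336), Aldoa (ENSMUSG00000030695, 126795234 to 126800751) and Ldha (ENSMUSG00000063229, 46841475 to 46855627). On chromosome 6 are Tpi1 (ENSMUSG00000023456, 124810586 to 124814296) and Gapdh (ENSMUSG00000057666, 125161715 to 125166467). Pfkl (ENSMUSG00000020277) spans 77986947 to 78010083 on chromosome 10, and Pgk1 (ENSMUSG00000062070) spans 106187100 to 106203699 on chromosome X. Pgam1 (ENSMUSG00000011752) spans 41911923 to 41918660 on chromosome 19. Eno1 (ENSMUSG00000063524) spans 150236721 to 150248879 on chromosome 4, and Pkm (ENSMUSG00000032294) spans 59656368 to 59679375 on chromosome 9. The symbol Aldoa also stands for ENSMUSG00000114515, an upstream entry on chromosome 7 with 0, 1 and 1 counts in VE and 1, 0 and 7 counts in Aalter, which was left out of the values.

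Processed copies of these genes are numerous in the mouse genome and could take or lend reads. GENCODE vM21 holds 230 genes whose transcripts align to 1 of the 10 over at least 50% of the copy at 90% identity or more, 189 of them to Gapdh. The table lists 5 of the 230, and their summed counts came to at most 1.46% of Gapdh and 0.72% of Eno1 in any library. Most of the counts set beside Gapdh were those of Peli2, with 317, 255 and 267 in VE, against 326, 136 and 247 in Aalter. Peli2 is a named gene on chromosome 14 that aligned through a processed transcript at 90.8% identity, so its counts may be its own expression. Adding the counts of all 5, Peli2 included, to the genes left the same 7 genes called. Reads of copies that the table does not list may be counted in the genes or lost, which was not tested.

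Set per length of the principal transcript, Gapdh had the highest level of the 10 in both groups and Pfkl the lowest. In CPM per kilobase, Gapdh averaged 1246 ± 8.21 in VE and 944 ± 60.2 in Aalter. Ldha followed at 484 ± 19.3 in VE and 376 ± 13.8 in Aalter, and Pkm at 456 ± 52.8 in VE and 320 ± 29.04 in Aalter (SD, n = 3 each). In VE the order went on with Aldoa (265), Pgk1 (235), Eno1 (228), Gpi1 (182), Pgam1 (132), Tpi1 (114) and Pfkl (8.47 CPM per kilobase). In VE the libraries of Ldha and Pkm overlapped, as did those of Pgk1 and Eno1. In Aalter the order after Pkm was Aldoa (254), Eno1 (159), Gpi1 (152), Pgk1 (150), Pgam1 (96.3), Tpi1 (67.7) and Pfkl (8.56 CPM per kilobase), and Eno1, Gpi1 and Pgk1 overlapped. With the longest annotated transcript as the length, Gapdh was still the highest, at 538 CPM per kilobase in VE and 408 in Aalter.

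Within the summed counts of the 10 genes, some changed their share between the groups. Aldoa made up 6.68% ± 0.044 of the sum in VE and 8.55% ± 1.23 in Aalter, and Gpi1 8.76% ± 0.41 in VE and 9.74% ± 0.38 in Aalter. Pgk1 made up 7.14% ± 0.21 in VE and 6.04% ± 0.53 in Aalter, and Tpi1 3.05% ± 0.026 in VE and 2.40% ± 0.32 in Aalter (SD, n = 3 each). For these 4 genes and Pfkl the groups did not overlap, with Gpi1, Pfkl and Aldoa lower and Tpi1 and Pgk1 higher in VE. The shares of Gapdh, Pgam1, Eno1, Pkm and Ldha overlapped, and Gapdh held 29.5% ± 1.14 in VE and 29.7% ± 0.20 in Aalter. As shares of a sum, these values are tied to each other and were not tested.

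Several steps can be catalysed by the product of more than 1 gene, and the chosen gene held most of the length-scaled sum in 6 of the 7 steps compared, the exception being phosphofructokinase. Of the length-scaled sum of the phosphofructokinase genes, Pfkl held 27.5%, 26.05% and 23.6% in VE, against 25.02%, 23.7% and 22.9% in Aalter. The platelet-type gene Pfkp held 71.5% in VE and 73.7% in Aalter on average, and the muscle-type gene Pfkm the small rest. Pfkl was thus not the main isoform of its step in these libraries. Pfkp itself stood at 89.6, 96.7 and 108 CPM in VE, against 99.8, 114 and 115 CPM in Aalter, and did not pass.

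Ldha held 98.6%, 98.9% and 99.1% of the lactate dehydrogenase genes in VE, against 98.5%, 97.7% and 98.1% in Aalter. The groups did not overlap, with a mean difference of 0.78 percentage points, and 3 against 3 libraries cannot give a p below 0.1 (exact permutation test, two-sided, p = 0.1, adjusted over the 5 steps with a varying share p = 0.5). For the other 4 of these steps the adjusted p was between 0.5 and 0.9. Eno1 held 97.9% in VE and 97.4% in Aalter, Pgam1 99.3% in VE and 99.2% in Aalter, and Pkm 99.9% in both. The testis forms Gapdhs and Pgk2 had 0 counts in every library, where 3 counts correspond to between 0.185 and 0.258 CPM.

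Pklr, the pyruvate kinase of liver and red cells, had 38.5 counts in VE-1 and 21.2 in Aalter-1, and at most 4.28 in the others. The same 2 libraries had the high sums of liver markers given above. Without both of them 8 of the 10 genes rose, beside 27.2% of all genes tested, and Aldoa was at 0.025 (adjusted p = 0.818).

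**Figure D3:**
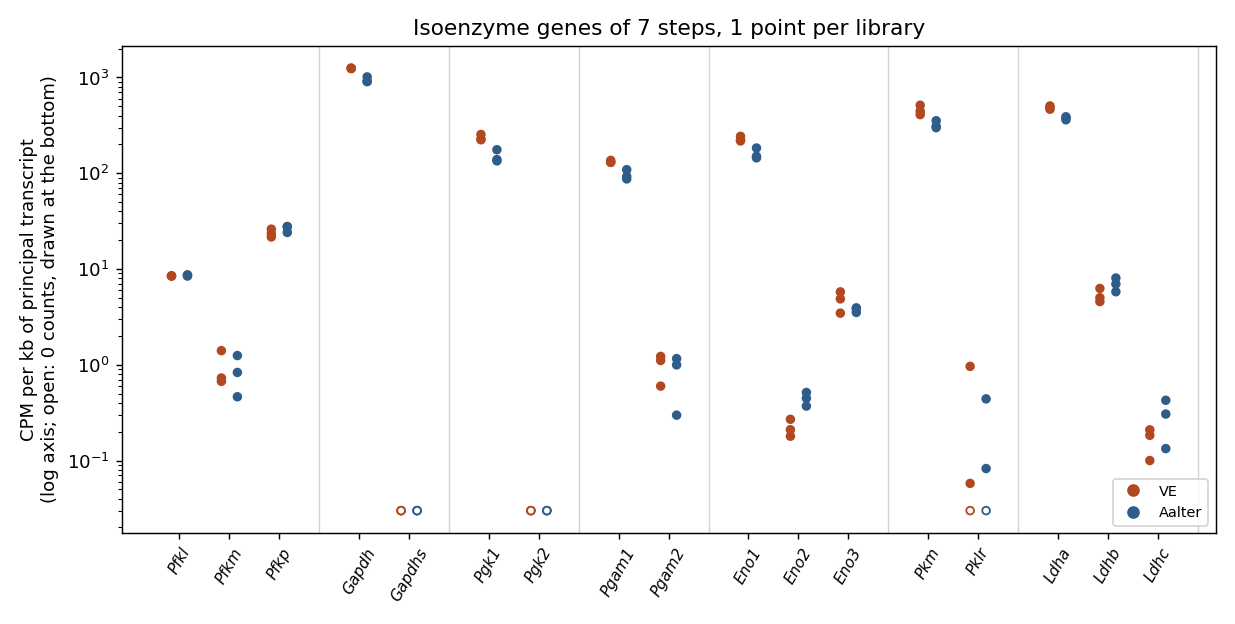
CPM per kilobase of principal transcript (log axis) for the isoenzyme genes of 7 steps, 1 point per library, VE left of Aalter for each gene, with open points for 0 counts drawn at the bottom. Pfkp lies above Pfkl in every library, and Ldha, Eno1, Pgam1 and Pkm lie far above the other genes of their steps.

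No gene of an alternative isoenzyme rose. Of 11 such genes 7 had enough counts to test, 0 rose and 0 fell, and the median log2 fold change was -0.16. Eno2, the neuronal enolase, had a log2 fold change of -1.0 ± 0.33 (adjusted p = 0.0543) on 7 to 11 counts per VE library and 15 to 24 counts per Aalter library. Aldoc was at -0.48 ± 0.22, Ldhb, the heart-type lactate dehydrogenase, at -0.39 ± 0.19 and Eno3 at 0.32 ± 0.21, and none of these passed. Over the alternatives 0 genes of the list rose, and up to 4 fell.

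The 5 genes with the profile most like the mean profile of the 10, among 3375 genes with a mean of at least 50 CPM, were Erp44, Gdap2, Neu1, Pdia3 and Npc2. Likeness was the root mean square difference of log2 CPM over the 6 libraries, each gene centred on its own mean, and it was 0.028 for Erp44 and 0.033 for Npc2. Pdia3 and Erp44 act on disulfide bonds in the secretory pathway, and Neu1 and Npc2 are lysosomal. Of the 10 genes themselves, Gapdh (0.030) and Ldha (0.037) were closest to that mean, and Pfkl (0.22), Aldoa (0.21) and Tpi1 (0.21) farthest from it.

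Neighbouring pathways held both risers and fallers, where 12.8% of all genes tested rose and 19.5% fell. In each of their lists 0 genes rose in at least 1 of the alternatives run. Of 8 tested genes of glucose uptake and the hexokinases, which feed the pathway, 2 rose and 0 fell, with a median log2 fold change of 0.22. Hk3, a hexokinase of myeloid cells, had 36.9, 40.7 and 43.8 CPM in VE, against 31.4, 22.3 and 22.6 CPM in Aalter (0.67 ± 0.16, adjusted p = 0.0197). The transporter gene Slc2a6 also rose (0.45 ± 0.11, adjusted p = 0.0212). The ADP-dependent glucokinase gene Adpgk (0.29 ± 0.10) and the glucose transporter gene Slc2a3 (0.24 ± 0.088) did not pass, with adjusted p-values of 0.0617 and 0.0729. With the GC and length trends removed 6 of the 8 rose, beside 13.5% of all genes tested, with Slc2a6 at 0.78, and with library size alone 0 did, beside 3.94%.

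Fructose 2,6-bisphosphate, an activator of phosphofructokinase, is made and degraded by bifunctional Pfkfb enzymes, and genes of 2 of them rose. Of 5 genes of this list Pfkfb4 (0.54 ± 0.12, adjusted p = 0.0166) and Pfkfb3 (0.42 ± 0.098, adjusted p = 0.0205) rose and 0 fell. Pfkfb3 averaged 131 ± 6.08 CPM in VE and 97.8 ± 9.03 CPM in Aalter (SD, n = 3 each). With library size alone neither passed, Pfkfb4 being at 0.40 (adjusted p = 0.0524) and Pfkfb3 at 0.28 (adjusted p = 0.0998), and with the GC and length trends removed both passed, at 0.83 and 0.64. Pfkfb2 (-0.19 ± 0.19) and Tigar, whose product degrades the activator (0.079 ± 0.15), did not pass. Of 5 tested genes of gluconeogenesis 0 rose and 0 fell, with Pck2 at -0.30 ± 0.20 and Fbp1 at -1.29 ± 0.90, and G6pc3 and Pcx did not pass either. Fbp1 had 10.5, 1.76 and 0.685 CPM in VE, against 10.2, 11.4 and 10.4 CPM in Aalter, so VE-1, a library with a high sum of liver markers, alone of the VE libraries was at the Aalter level. Without VE-1 and Aalter-1 its log2 fold change was -3.19, and it was the 1 gene of this list that passed, as lower in VE.

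Branches that leave or enter the upper pathway held further risers. In the pentose phosphate pathway, which makes NADPH and ribose, 4 of 8 genes rose and 0 fell. Taldo1, transaldolase, had 402, 411 and 377 CPM in VE, against 296, 254 and 273 CPM in Aalter (0.53 ± 0.099, adjusted p = 0.0117). Pgd (0.43 ± 0.084), Rpe (0.46 ± 0.11) and G6pdx (0.33 ± 0.097) were the other risers. Rpe was at 0.10 (adjusted p = 0.494) with the GC and length trends removed, and with library size alone 2 of the 8 rose.

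Of 11 genes of glycogen and galactose entry 5 rose and 1 fell, with a median log2 fold change of 0.48. Pygl, the glycogen phosphorylase of liver and myeloid cells, had 374, 369.96 and 340 CPM in VE, against 271, 147 and 158 CPM in Aalter (0.91 ± 0.23, adjusted p = 0.0262). Pygb, the brain-type phosphorylase, fell by 0.56 ± 0.15 in log2 terms (adjusted p = 0.0274), to a mean of 13.6 CPM in VE, against 20.1 CPM in Aalter. Ugp2 (0.56 ± 0.11) and the branching enzyme gene Gbe1 (0.58 ± 0.13) rose, as did Pgm2 and Galk1, which are named after their values were seen. With the GC and length trends removed 4 genes of the list rose, Pygb was at -0.22 (adjusted p = 0.286) and Ugp2 at 0.20 (adjusted p = 0.108). With library size alone 1 rose, and Pygl was at 0.76 (adjusted p = 0.0549), while 8 rose without VE-1 and Aalter-1.

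Of 7 genes of the serine and glycerol branches 0 rose and 2 fell. Shmt2, the mitochondrial serine hydroxymethyltransferase, had 18.8, 16.1 and 21.6 CPM in VE, against 24.8, 52.8 and 51.1 CPM in Aalter (-1.18 ± 0.29, adjusted p = 0.0234). Gpd2, the mitochondrial glycerol phosphate dehydrogenase, fell by 0.41 ± 0.12 in log2 terms (adjusted p = 0.0413) and was at -0.29 (adjusted p = 0.14) with the GC and length trends removed. Psph (0.26 ± 0.12) and Phgdh, which opens the serine branch (-0.47 ± 0.23), did not pass.

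Past pyruvate, the lactate exporter gene Slc16a3 and its chaperone gene Bsg rose and 0 of 6 transport genes fell. Slc16a3 had 278, 294 and 269 CPM in VE, against 218, 176 and 199 CPM in Aalter (0.504 ± 0.11, adjusted p = 0.0165), and Bsg averaged 142 ± 1.47 CPM in VE and 113 ± 2.25 CPM in Aalter (0.33 ± 0.077, adjusted p = 0.0203). Slc16a1, another lactate carrier, was at -0.40 ± 0.14 (adjusted p = 0.0614) and the mitochondrial pyruvate carrier gene Mpc1 at 0.21 ± 0.088, and neither passed. With library size alone neither Slc16a3 (0.36, adjusted p = 0.0517) nor Bsg (0.19, adjusted p = 0.118) passed, and with the GC and length trends removed both passed, at 1.005 (adjusted p = 0.0135) and 0.60 (adjusted p = 0.018).

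Of 11 genes of pyruvate dehydrogenase and its control 1 rose and 1 fell. Pdk3, a kinase that inactivates the complex, rose by 0.53 ± 0.104 on the log2 scale (adjusted p = 0.0135), and Pdp2, a phosphatase that reactivates it, fell by 0.94 ± 0.16 (adjusted p = 0.0093). Pdp2 had 4.30, 4.69 and 5.55 CPM in VE, against 9.98, 9.17 and 8.74 CPM in Aalter, with the groups well apart. Pdk3 was at 0.34 (adjusted p = 0.0416) with the GC and length trends removed. Pdk1 (0.47 ± 0.17, adjusted p = 0.0689) and Dld (0.18 ± 0.080) did not pass. Of 16 genes of the tricarboxylic acid cycle 4 rose and 1 fell, with a median log2 fold change of 0.18. The risers were Sdhd (0.45 ± 0.090), Sdhb (0.40 ± 0.096), Suclg1 (0.36 ± 0.093) and Idh3g, the last named after its values were seen, and the faller was Ogdh (-0.64 ± 0.17). With the GC and length trends removed 1 of the 16 rose and 0 fell, and with library size alone 0 rose and 2 fell. Of 7 genes of the malate-aspartate shuttle Slc25a12 rose (0.43 ± 0.13) and Got1 fell (-0.45 ± 0.12), while Got2 (0.29 ± 0.103) and Slc25a11 (0.20 ± 0.13) did not pass. Slc25a12 was at 0.29 (adjusted p = 0.162) with library size alone.

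**Figure D4:**
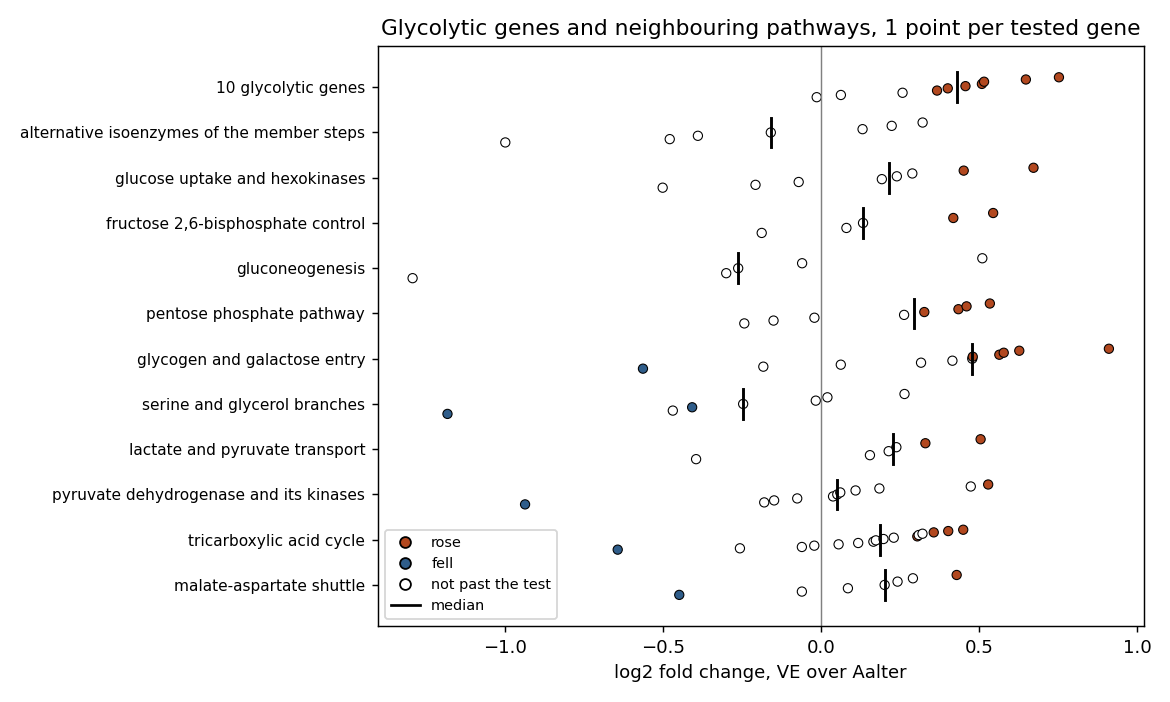
Log2 fold change of VE over Aalter for each tested gene of the 10 glycolytic genes and of 11 neighbouring lists, with filled points for genes that rose (red) or fell (blue), open points for the rest and a bar for the median. The median is 0.43 for the 10 glycolytic genes, 0.48 for glycogen and galactose entry and -0.16 for the alternative isoenzymes.

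Like the glycolytic genes, some leukocyte marker sums were higher in VE, but not all followed those genes from library to library within a group. Neutrophil markers summed to 44555, 43706 and 36522 CPM in VE, against 25787, 26898 and 30086 CPM in Aalter, and 9 of 11 rose. S100a8 and S100a9 made up most of this sum in every library. Among Aalter libraries, S100a8, S100a9, Camp, Retnlg and Ly6g were highest in Aalter-3. The other neutrophil markers, Ngp, Ltf, Mmp8, Mmp9, Cxcr2 and Csf3r, were highest in Aalter-1. Monocyte and macrophage markers summed to 7642, 7808 and 7959 CPM in VE, against 5926, 4446 and 4614 CPM in Aalter, and 8 of 10 rose. Cd14 and Lyz2 made up most of that sum in every library. Alveolar macrophage markers summed to 9580, 9631 and 9117 CPM in VE, against 7373, 7606 and 8225 CPM in Aalter. Of these 9 markers 1 rose and 4 fell, with a median log2 fold change of -0.52. The riser, Chil3, made up most of the sum in every library. It had 9325, 9389 and 8887 CPM in VE, against 7046, 6909 and 7578 CPM in Aalter. The neutrophil, the monocyte and macrophage, and the alveolar macrophage sums were each higher in every VE library than in any Aalter library. Aalter-1 stood nearest to VE in the monocyte and macrophage sum. It was the lowest Aalter library in the neutrophil and alveolar macrophage sums, but the highest for 8 of the 10 glycolytic genes. Plasma cell markers summed to 12885, 14810 and 24217 CPM in VE, against 9534, 2949 and 2998 CPM in Aalter, and 2 of 8 rose and 1 fell. Igkc and Jchain made up most of this sum in every library, and neither passed (adjusted p = 0.0658 and 0.0988). VE-3, the highest VE library for 9 of the 10 glycolytic genes, was also the highest of all 6 in this sum and the lowest VE library in the neutrophil sum.

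Several lymphoid and erythroid markers fell. T cell markers summed to 875, 906 and 988 CPM in VE, against 1080, 1410 and 1373 CPM in Aalter, with 1 of 10 risen and 5 fallen. Markers of group 2 innate lymphoid cells summed to 297, 321 and 417 CPM in VE, against 313, 494 and 458 CPM in Aalter, with overlapping groups, 1 of 9 risen and 3 fallen. The fallers were Gata3 (-1.83 ± 0.24), Il13 (-2.16 ± 0.48) and Il5 (-3.03 ± 0.51, on 5 to 8 counts per VE library). For these genes every VE library lay below every Aalter library. The riser was Areg (0.42 ± 0.090). B cell markers summed to 214, 222 and 194 CPM in VE, against 269, 331 and 324 CPM in Aalter, and 6 of 8 fell. Erythroid markers, of cells that live by glycolysis, summed to 290, 288 and 379 CPM in VE, against 460, 685 and 666 CPM in Aalter, and 6 of 6 tested fell. Skeletal muscle markers, of a tissue rich in Aldoa, Pgam2 and Eno3, stayed between 3.22 and 4.08 CPM in VE and between 3.41 and 4.61 CPM in Aalter, with Myh2 and Myh4 at 0. The part of any of these cell types in the glycolytic values was not tested.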

How the data were processed

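The 10 genes, the neighbouring lists and the alternatives were chosen with earlier results of these data known. Libraries came from total RNA through an mRNA-sequencing kit, per the labels' protocols. The authors deposited 1 table of estimated counts per gene and library, unscaled and not always whole (between 10.5% and 12.2% of values in a library were not whole), and the build is mm10 per the submitters' processing notes. Aligner, counter and strandedness were not given in the sources used here, so overlapping and antisense genes are uncertain. Of 21956 IDs, 83 had no symbol and 21804 were found in GENCODE vM21.

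Counts were rounded and tested with edgeR 4.0.16 in R 4.3.3 (TMM, filterByExpr, robust quasi-likelihood fit, group as the only term, Benjamini-Hochberg adjustment, threshold 0.05). The SE is the log2 fold change over the square root of F, and the common biological coefficient of variation was 0.21. CPM use library size times the TMM factor (0.943 to 0.969 in VE, 1.03 to 1.08 in Aalter). Alternatives comprised DESeq2 1.42.0, voom of limma 3.58.1, RLE or library-size scaling, other filters, a replicate block, libraries left out, trends on GC content and length removed (splines with 5 degrees of freedom), and copies found with blastn 2.17.0 summed in. Named besides the 10 genes are up to 4 genes of each list with the smallest p. On simulated data like this comparison (12356 genes), 50.9% of 110 genes changed by 1 on the log2 scale and 90.0% of 90 changed by 2 were recovered, and 9.27% of calls were false. No 2 libraries were copies: median chi-squares per gene were 0.693 or more, and counting noise gives 0.455. The floors given for 3 counts cover counting error only, while the 95% intervals of log2 fold changes include the spread between libraries. Some listed genes are not reported here.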

Additional observations from a re-analysis of the deposited data

How the results depend on the processing

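Against 1612 genes higher and 2442 lower in VE, with 7 of the 10 glycolytic genes higher and 0 lower, library size alone gave 495 higher and 2 glycolytic genes, removing GC content and length trends 1604 lower, and leaving out VE-1 and Aalter-1 together 3404 higher. Leaving out each library gave 2 to 3561 higher, 177 to 3652 lower and 0 to 8 glycolytic genes higher, and 0 glycolytic genes fell in any setting run. The replicate block left 4 glycolytic genes called (Tpi1, Pgk1, Pgam1 and Eno1), with 1193 genes higher and 2074 lower, while deviations of same-numbered libraries correlated at 0.299, 0.272 and 0.053. No label says that numbers pair libraries and the last value is near 0, so the block stayed an alternative, although VE-1 and Aalter-1 share high liver markers. VE-1 and VE-2, but not VE-3, correlated best with the Aalter library of their own number. Directions turned for Aldoa with library size (-0.074) and over single libraries left out (-0.009 to 0.099), for Tigar with library size (-0.063) and without VE-2 (-0.0018, in a range up to 0.18 over single libraries left out), and for Pcx without Aalter-1 (0.35) or VE-2 (0.10), in a range from -1.36. With both trends removed they turned for Pfkl (0.44), Pcx (0.23), Dld (-0.18), G6pc3 (0.23) and Mpc1 (-0.25). With the GC trend alone they turned for Pfkl (0.34), Pcx (0.064) and G6pc3 (0.32), and with length alone for Pfkl (0.075) and Mpc1 (-0.020). Apart from what the construction of a setting shows, such as fewer libraries, the cause was not tested. Low counts limit the precision of genes such as Pcx (12 to 94 counts per library) and Eno2 (7 to 24).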
